A study of Mus musculus with 7 samples.

Results

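Bhlhe40, Bhlhe41 and Ciart code for 3 repressors that act through the E-box, the DNA element to which the clock activator BMAL1 binds. Peaks of BMAL1, REV-ERBα and RNA polymerase II (RNAP2) at these genes were taken from the 6 peak lists of the series when they overlapped a gene body or lay within 10 kb of any annotated transcription start site (TSS). This gave 46 of the 527912 peaks of the series, 23 at Bhlhe40, 14 at Bhlhe41 and 9 at Ciart. Of these peaks, 14 came from the BMAL1 lists, 9 from the REV-ERBα lists and 23 from the RNAP2 lists.

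Chromatin immunoprecipitation followed by sequencing (ChIP-seq) was performed on gastrocnemius, a fast calf muscle, from wild-type C57BL/6J male mice aged 5 months and kept on chow under equal light and dark phases. BMAL1 and RNAP2 were mapped at Zeitgeber time (ZT) 4 and REV-ERBα at ZT 8, counted in hours from lights on, with 2 replicates for each factor and 1 input DNA. Each factor was mapped at a single time and in a single genotype, so factor, antibody and time cannot be told apart, and with 2 replicates and no second condition no test between groups was made. The tissue was whole muscle, and a peak cannot be assigned to one of its cell types.

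CLOCK and BMAL1 bind E-boxes together, most often with the letters CACGTG, and activate transcription in the daytime. Among their targets are genes whose products feed back on them. Bhlhe40 (DEC1) and Bhlhe41 (DEC2) are basic helix-loop-helix proteins that bind the same E-box and repress it, whereas Ciart (CHRONO) is a repressor that associates with BMAL1 on chromatin. REV-ERBα, itself a product of an E-box gene, is a nuclear receptor that represses through AGGTCA elements and can also be brought to chromatin by other factors.

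All positions are on mm10 (GRCm38), with genes from GENCODE M21. Bhlhe40 (ENSMUSG00000030103) lies on the plus strand at chr6:108660629-108666925 and has 4 annotated TSSs. Bhlhe41 (ENSMUSG00000030256) lies on the minus strand of the same chromosome, at chr6:145858243-145865558, with 3 TSSs. Ciart (ENSMUSG00000038550) lies on the minus strand at chr3:95878503-95882251 and has 6 TSSs. The windows searched were 22418, 20257 and 21006 bp long, below the median of 30198 bp over 21924 protein-coding genes. An antisense transcript runs across the upstream side of Bhlhe40 and another across the whole of Ciart. A further annotated transcript lies upstream of Bhlhe40 on the same strand, at chr6:108656917-108659537. In the Ciart window, 2 protein-coding neighbours, Mrps21 and BC028528, have TSSs.

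The sequences below carry CACGTG copies covered by BMAL1 peaks and the AGGTCA within 100 bp of a REV-ERBα summit. They are read from GRCm38 in the direction of transcription of each gene, 5′ to 3′, with capitals marking CACGTG on either strand, its variant CACGTT, the REV-ERB core AGGTCA and, where it forms a pair with another E-box, CACGCG. The Ciart promoter is shown first because it held 4 CACGTG, at chr3:95882252-95882361 for the 3 nearest the TSS and at chr3:95882631-95882710 for the fourth.
Ciart promoter, 3 E-boxes: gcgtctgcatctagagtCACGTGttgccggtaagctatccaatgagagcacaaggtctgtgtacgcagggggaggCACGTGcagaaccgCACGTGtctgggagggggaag
Ciart promoter, distal E-box: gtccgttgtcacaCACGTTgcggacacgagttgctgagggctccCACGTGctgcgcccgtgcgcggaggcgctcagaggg
The outermost TSS of Ciart follows directly on the first sequence, and its last 2 CACGTG are separated by 8 bases.

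At Bhlhe41, the stronger BMAL1 region lay downstream of the gene, at chr6:145855840-145855939, and the E-box under peaks of both factors stood 10 bp upstream of the TSS, at chr6:145865559-145865638.
Bhlhe41 downstream site: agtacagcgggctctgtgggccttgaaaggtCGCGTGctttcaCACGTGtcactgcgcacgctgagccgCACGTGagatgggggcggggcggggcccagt
Bhlhe41 promoter: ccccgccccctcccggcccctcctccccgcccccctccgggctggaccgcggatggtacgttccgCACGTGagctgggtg
The downstream site holds 2 CACGTG with 20 bases between them, and CACGCG, written here from its other strand, 6 bases from the nearer one.

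At Bhlhe40, the sequences show the E-box at the strongest BMAL1 summit (chr6:108659415-108659544), the E-box closest to the TSS (chr6:108660325-108660378) and the downstream site (chr6:108668440-108668600), where AGGTCA, shown from its other strand, precedes a copy of CACGTT.
Bhlhe40 upstream site: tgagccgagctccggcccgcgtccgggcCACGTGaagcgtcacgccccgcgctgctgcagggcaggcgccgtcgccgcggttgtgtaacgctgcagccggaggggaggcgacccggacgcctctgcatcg
Bhlhe40 E-box nearest the TSS: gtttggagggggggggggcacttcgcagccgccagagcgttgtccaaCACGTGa
Bhlhe40 downstream site: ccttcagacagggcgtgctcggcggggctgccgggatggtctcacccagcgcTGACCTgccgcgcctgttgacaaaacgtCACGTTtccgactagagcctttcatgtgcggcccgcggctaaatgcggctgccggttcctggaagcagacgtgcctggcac

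Overlapping peaks of a factor's replicates were merged into regions, and a region was counted when each replicate had a peak in it. By this measure 3 of 3 genes had a BMAL1 region, compared with 6.81% of protein-coding genes, and 3 of 3 had a REV-ERBα region, compared with 4.43%. All 3 genes also carried a shared site, that is, merged peaks from 3 or 4 of the lists of BMAL1 and REV-ERBα, which 1.61% of protein-coding genes did. An RNAP2 region was present at each of the 3 genes and at 41.1% of protein-coding genes. Regions of all 3 factors together were found at the 3 genes and at 0.803% of protein-coding genes. Within the 9012 genes that had an RNAP2 region, the shares were 10.3% for a BMAL1 region, 8.48% for a REV-ERBα region and 3.02% for a shared site. At each gene the site with peaks in all 4 lists lay on the promoter side, while Bhlhe40 had a second shared site downstream and Bhlhe41 a second BMAL1 region downstream.

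**Figure D1:**
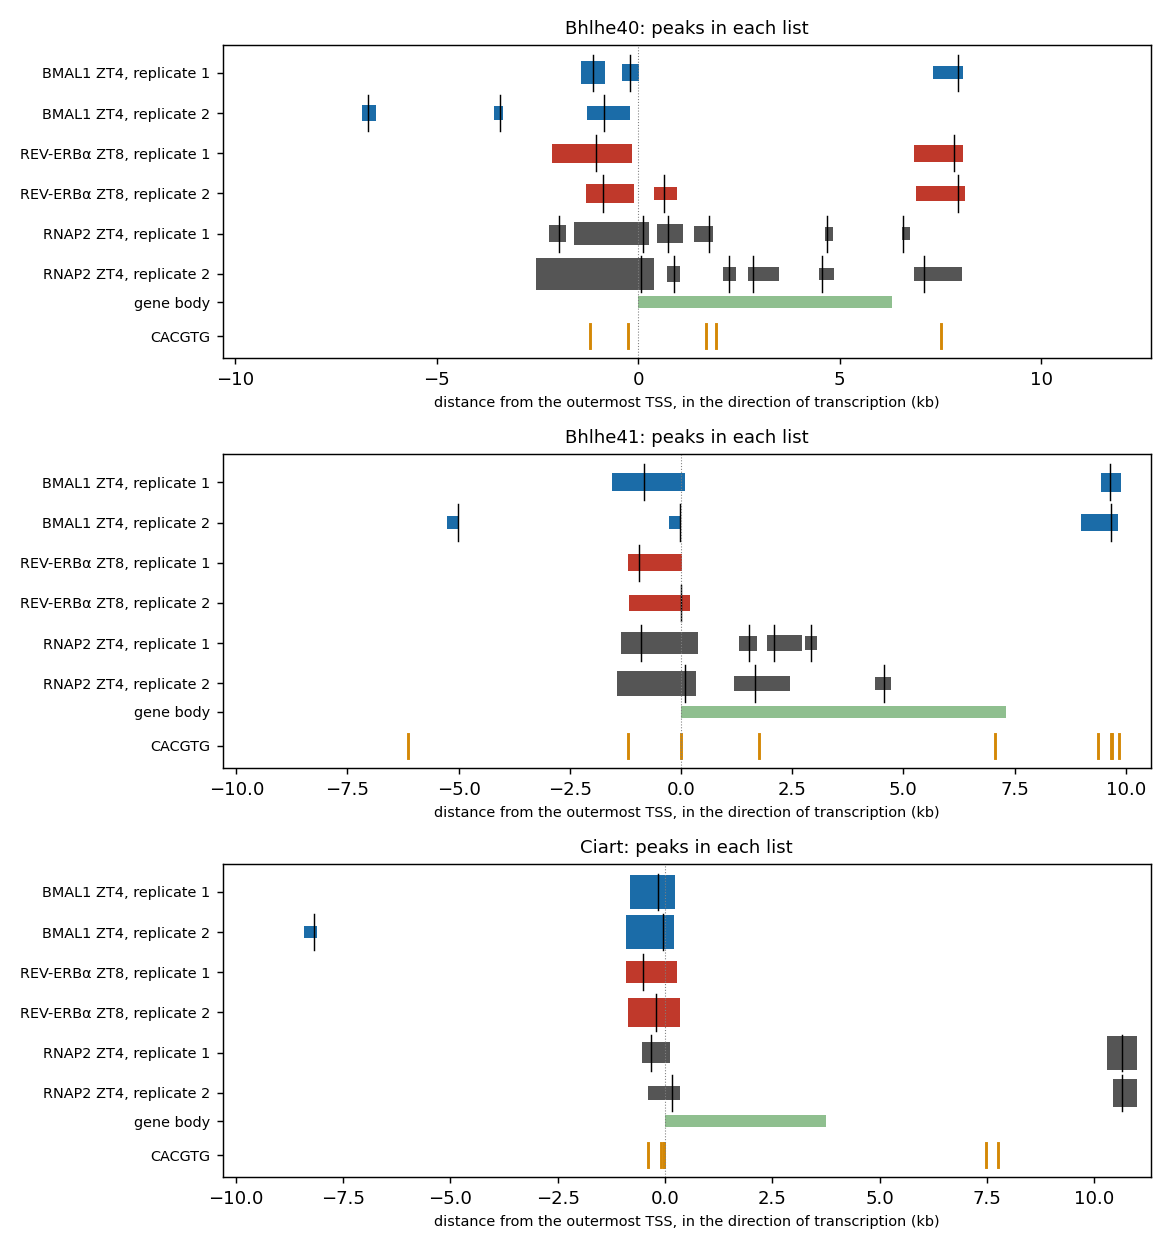
Peaks of each list (bars) at Bhlhe40, Bhlhe41 and Ciart, against the distance from the outermost TSS in kb in the direction of transcription. Taller bars have a higher −log10 p, up to a height reached at 20, black lines mark summits, the green bar is the gene body and the orange ticks are CACGTG. Both factors had peaks next to the TSS of all 3 genes, and the downstream BMAL1 peaks of Bhlhe41 had no REV-ERBα peak over them.

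The lists differed in length, so values from different lists are not on one scale, and the means and orders over several lists given here are descriptions. BMAL1 replicate 2 held 177669 peaks with a median −log10 p of 1.87, and BMAL1 replicate 1 held 34737 peaks with a median of 2.48. The REV-ERBα lists held 28881 and 29934 peaks, and the RNAP2 lists 87870 and 168821. A peak of BMAL1 replicate 2 alone lay in the window of 84.3% of protein-coding genes, so that its weak peaks carry little information about a gene. The −log10 p of the peak caller rises with the number of reads as well as with enrichment, the reads behind each peak are unknown, and each peak is therefore also given by its place in its list. As a check of the tissue, 10 of 10 muscle markers had an RNAP2 region, and 1 of 11 markers of other tissues and cell types had one.

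Ciart had the strongest BMAL1 peaks of the 3 genes. The −log10 p at its promoter reached 24.05 in replicate 1, the 8th highest of that list, and 21.67 in replicate 2, the 2nd highest, with enrichments over input of 7.81-fold and 8.64-fold. When the 2742 BMAL1 regions were ordered by the lower −log10 p of their replicates, the Ciart promoter came first. The region spanned chr3:95882024-95883170, and the summits lay 166 and 39 bp upstream of the nearest TSS. The only other BMAL1 peak in the window, in an intron of BC028528 in replicate 2 alone, had a −log10 p of 1.97, close to the median of its list.

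REV-ERBα covered the same stretch of the Ciart promoter. Its peak reached 9.55 on the −log10 p scale in replicate 1 and 15.9 in replicate 2, ranks 165 and 106 in their lists, with 4.58-fold and 6.29-fold enrichment. The REV-ERBα summits lay farther from the TSS than those of BMAL1, at 504 and 223 bp upstream, and the closest BMAL1 and REV-ERBα summits were 57 bp apart. With a mean −log10 p of 17.8 over its lists, the Ciart site ranked 4th of the 110 sites with peaks in all 4 lists.

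At Bhlhe40, the BMAL1 peaks of the replicates differed in strength. In replicate 1 the peak 1114 bp upstream of the TSS had a −log10 p of 11.0, rank 33 in the list, with 4.97-fold enrichment, and a second peak, 209 bp upstream, had a −log10 p of 6.03. In replicate 2 a single peak covered both E-boxes with its summit 837 bp upstream, a −log10 p of 3.36, rank 10414 and 2.65-fold enrichment. The merged region, chr6:108659211-108660649, ranked 75th of 2742 by the lower value. The strongest BMAL1 peak of replicate 2 in the window, with a −log10 p of 4.18, lay 6694 bp upstream and had no counterpart in replicate 1. A further peak of replicate 2, 3428 bp upstream with a −log10 p of 2.83, also stood alone. Its summit, and the summit 1114 bp upstream in replicate 1, lay in an exon of the upstream transcript on the strand of Bhlhe40.

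The REV-ERBα peaks at the same upstream site of Bhlhe40 were close in strength, with −log10 p values of 7.09 and 7.31 and ranks of 224 and 223 in their lists. Their summits lay 1041 and 873 bp upstream of the TSS, 168 bp from each other and as near as 36 bp to a BMAL1 summit. The second shared site of Bhlhe40 lay past the 3′ end of the gene, at chr6:108667488-108668746 in intergenic sequence. There REV-ERBα had a −log10 p of 5.65 and 3.29, whereas BMAL1 had a peak only in replicate 1, where the −log10 p of 2.29 was below the median of its list. This site thus rested mainly on REV-ERBα, and 0.26% of protein-coding genes had as many as 2 shared sites in their window. A REV-ERBα peak over an exon of Bhlhe40, with a −log10 p of 2.64, was present in replicate 2 alone.

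Bhlhe41 carried its most reproducible BMAL1 region downstream of the gene rather than at the promoter. The downstream peak, chr6:145855660-145856574, had −log10 p values of 7.11 and 5.22, ranks 69 and 183 in the lists of replicates 1 and 2, and came 28th of the 2742 regions. Its summits were 31 bp apart, and 6.89% of BMAL1 regions had replicate summits as close. It lay in intergenic sequence 9384 to 9415 bp from the nearest TSS, inside the 10 kb limit, and within 5 kb it would not have been counted. No REV-ERBα peak and no RNAP2 region overlapped it. The nearest RNAP2 peaks beyond the limit ended 33 and 384 bp outside the window, with a −log10 p of 4.52 and 1.79.

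At the Bhlhe41 promoter, BMAL1 replicate 1 had a peak with a −log10 p of 6.71, rank 83, whose summit lay 840 bp upstream of the TSS. In replicate 2 the peak there had a −log10 p of 1.83, stronger than 19.2% of its list, and its summit lay 33 bp upstream, 807 bp from that of replicate 1. This region ranked 1916th of 2742, so BMAL1 at the promoter rested on replicate 1. REV-ERBα was the steadier factor at this promoter, with a −log10 p of 5.84 and 5.65 and ranks of 316 and 420, although its summits, 951 and 4 bp upstream, were 947 bp apart. One more BMAL1 peak, 5008 bp upstream in replicate 2, had a −log10 p of 1.87.

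**Figure D2:**
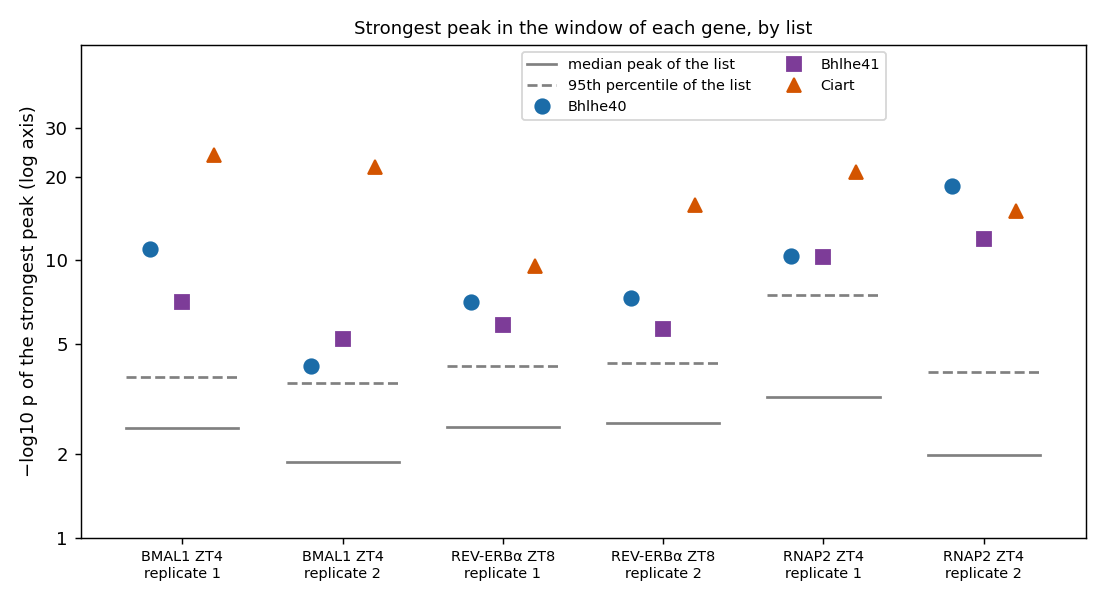
The −log10 p of the strongest peak in the window of each gene (symbols), on a log axis, in each of the 6 lists; solid and dashed grey lines give the median and the 95th percentile of all peaks of the list. All 18 symbols lie above the dashed line of their list, and Ciart is highest in each BMAL1 and REV-ERBα list. The RNAP2 symbols of Ciart are the peaks at the TSSs of Mrps21 and of the antisense transcript. The symbol of Bhlhe40 in BMAL1 replicate 2 is the lone peak 6694 bp upstream.

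The order of the genes was the same in 3 of the 4 lists of BMAL1 and REV-ERBα. Over the strongest peak of each replicate, BMAL1 had a mean −log10 p of 22.9 ± 1.68 (SD, n = 2) at Ciart, 7.61 ± 4.86 at Bhlhe40 and 6.16 ± 1.34 at Bhlhe41. The Bhlhe40 mean joins peaks at different places, and the region present in both replicates gave 11.0 and 3.36, the latter below the 95th percentile of its list, 3.60. The ranges of Bhlhe40 and Bhlhe41 overlapped, with Bhlhe41 higher in replicate 2, while both values of Ciart stood above them. For REV-ERBα the means were 12.7 ± 4.47 at Ciart, 7.20 ± 0.16 at Bhlhe40 and 5.75 ± 0.139 at Bhlhe41, and the ranges of the 3 genes did not overlap. As enrichment over input, the BMAL1 means were 8.23 ± 0.586-fold, 4.05 ± 1.31-fold and 3.55 ± 0.0884-fold in the same order.

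RNAP2 at ZT 4 gave a different order at the promoters. The −log10 p of the Bhlhe40 promoter peak was 10.4 in replicate 1 and 18.5 in replicate 2. That of Bhlhe41 had 10.3 and 11.9. That of Ciart had 9.34 and 2.86, the lower of which had a −log10 q of 0.00 and did not pass a false discovery rate of 5%. Ciart, highest for BMAL1, was thus lowest for RNAP2 in each replicate, although in replicate 1 the 3 values lay close together. Replicate summits of these promoter regions were 48 bp apart at Bhlhe40, 981 bp at Bhlhe41 and 490 bp at Ciart. The antisense transcript upstream of Bhlhe40 starts 305 bp from the Bhlhe40 TSS, and its RNAP2 cannot be told apart from that of Bhlhe40. The promoter region of Bhlhe40 also overlaps the upstream transcript on the same strand, whose RNAP2 cannot be told apart either. The strongest RNAP2 peaks in the Ciart window, with a −log10 p of 20.9 and 15.1, had summits 9637 and 9635 bp from the nearest Ciart TSS. They lay where Mrps21, a mitochondrial ribosomal protein gene (TSS at chr3:95871519), and the antisense transcript across Ciart (TSS at chr3:95871522) start. Both summits were in an exon of the antisense transcript, and RNAP2 of Mrps21 and of this transcript cannot be told apart.

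RNAP2 peaks covered a larger share of Bhlhe40 and Bhlhe41 than of Ciart. They covered 25.1% and 34.4% of the Bhlhe40 gene body in the replicates and 25.6% and 26.8% of that of Bhlhe41. For Ciart the shares were 2.75% and 9.07%. Over the 9012 genes with an RNAP2 region the median was 1.81% in replicate 1 and 3.69% in replicate 2, and at most 2.40% of them had as large a share as Bhlhe40 or Bhlhe41. Bhlhe40 is 6297 bp long, Bhlhe41 7316 bp and Ciart 3749 bp. The shares were not compared with those of genes of like length, and the part of gene length in them was not tested. Another annotated transcript, Gm43909, has its TSS inside Bhlhe41, and RNAP2 over its exons cannot be told apart from RNAP2 on Bhlhe41.

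CACGTG was frequent in the windows of the 3 genes, with 20 copies or 3.14 per 10 kb, compared with 1.19 per 10 kb over the windows of all protein-coding genes. Of the 20, 13 lay in a BMAL1 peak of either replicate (compared with 3.85% of 145191 copies in all windows), and 9 lay in BMAL1 peaks of both replicates, out of 81 copies in all windows for which this held. The 9 were 4 at Ciart, 3 at Bhlhe41 and 2 at Bhlhe40. REV-ERBα peaks of both replicates covered 8 of the 20 copies, compared with 141 copies in all windows (0.0971%). The copies outside any BMAL1 or REV-ERBα peak numbered 2 at Bhlhe40, 3 at Bhlhe41 and 2 at Ciart, and BMAL1 peaks of either list covered 6.97% to 14.1% of each window. These counts are descriptions, since a copy of the motif is not by itself a binding site.

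The 4 CACGTG of the Ciart site are uncommon in number. Of the 550 sites shared by BMAL1 and REV-ERBα, 20.2% held at least 1 copy, 7.09% at least 2 and 0.909%, or 5 sites, at least 4. The promoter site of Bhlhe40 and that of Bhlhe41 each held 2. In the RefSeq promoters (GRCm38.p6), which run from 250 bases before to 50 after each TSS and have entries for 2 of the 3 genes, Ciart had 3 copies and Bhlhe41 had 1. At least 3 copies were found in 0.0883% of 32851 promoters and at least 1 in 7.15%. Bhlhe40 had no entry.

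BMAL1 summits lay close to these E-boxes. Within 100 bp of the summit of the stronger replicate, 3 of the 4 BMAL1 regions held CACGTG, compared with 2.55% of all 2742 regions, and the exception was the Bhlhe41 promoter, where CACGTT lay 8 bp from the summit. Taking each replicate by itself, 6 of the 8 BMAL1 summits were within 100 bp of the motif, with a median distance of 47 bp. The closest were 6 bp, at the Ciart promoter and at the Bhlhe41 downstream site, both in replicate 2. The 2 summits outside this range, at 346 and 362 bp, belonged to the Bhlhe40 upstream site in replicate 2 and the Bhlhe41 promoter in replicate 1. The Bhlhe41 downstream region also held a pair of E-boxes near its summit, spaced by 5 to 8 bases and in any of the E-box forms capitalised above, as did 4 of all 2742 regions (0.146%). The pair at Ciart, chr3:95882267-95882286, lay farther than 100 bp from the summit of replicate 1, which was the one used for this count. It lay within 100 bp of the summit of replicate 2, at chr3:95882290.

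**Figure D3:**
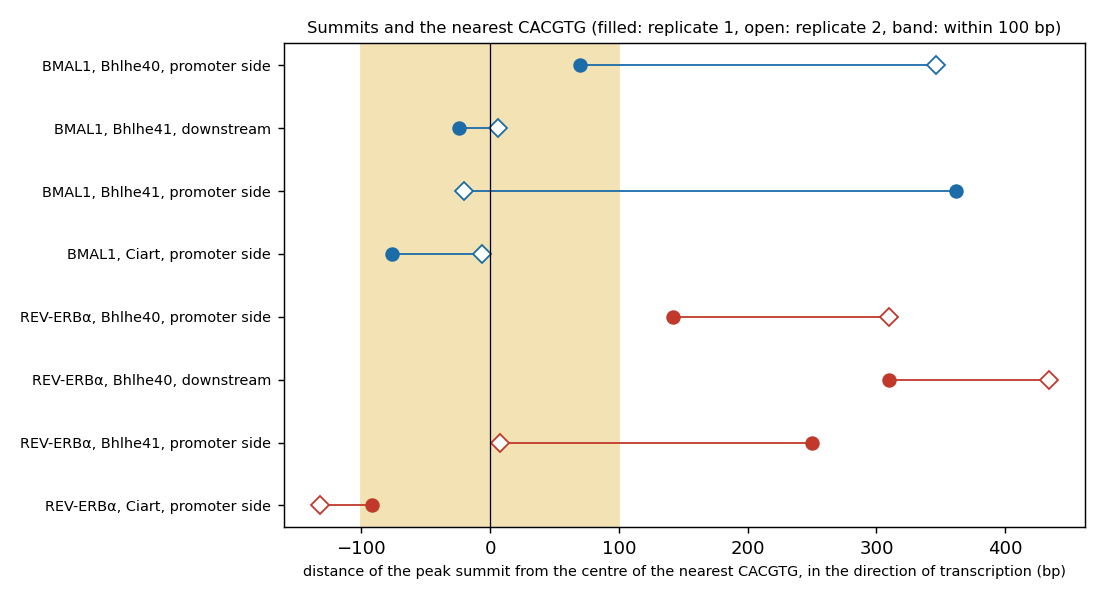
Distance in bp, in the direction of transcription, from the centre of the nearest CACGTG to the summit of each BMAL1 (blue) and REV-ERBα (red) region at the 3 genes; filled symbols are replicate 1, open symbols replicate 2, and the band marks 100 bp to each side. Of the BMAL1 summits 6 of 8 fall in the band, and of the REV-ERBα summits 2 of 8.

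The REV-ERBα summits at the 3 genes were at a median distance of 196 bp from CACGTG, and 2 of the 8 lay within 100 bp. At the summit of the stronger replicate 0 of 4 REV-ERBα regions held CACGTG within 100 bp, compared with 3.40% of all 1263 regions. These summits were 132 to 310 bp from the nearest copy, and between 4.43% and 10.8% of all REV-ERBα regions lay as close. AGGTCA was found within 100 bp of 1 of the 4 summits, at the downstream site of Bhlhe40, where it lay 34 bp from the summit of replicate 1, and it was found at 13.1% of all REV-ERBα regions. GGGTCA was found at 0 of the 4 and at 8.63% of all. The REV-ERB direct repeat DR2 was searched as an exact string, AGGTCA or GGGTCA followed by another after 2 bases. It was not found in the 3 windows. Near the summit this string was found at 0 of all 1263 REV-ERBα and 1 of all 2742 BMAL1 regions, so nothing can be read from it. The paper, which used other motif searches, reports DR2 among the enriched motifs of both factors. Farther from the summits, 5 copies of AGGTCA lay under the REV-ERBα peak of replicate 1 at the Bhlhe40 upstream site, 2047 to 1517 bp upstream of the TSS and outside the peak of replicate 2. Other copies were present under both REV-ERBα peaks at the Bhlhe41 promoter, 377 bp upstream of the TSS, and at Ciart, 700 bp upstream. Replicate summits of REV-ERBα differed by 168, 123, 947 and 281 bp at the 4 regions, compared with a median of 186 bp, so distances of this size to a motif are within the spread between replicates.

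Other motifs searched within 100 bp of the summits were the muscle E-box CAGCTG, the D-box TTATGTAA of the DBP family and the cAMP element TGACGTCA. CAGCTG was found at 1 of 4 BMAL1 and 1 of 4 REV-ERBα regions, both times at the Bhlhe41 promoter, and at 7.08% and 12.7% of all regions. The general form CANNTG was found at 4 of 4 regions of each factor and at 65.2% and 62.9% of all. No D-box or cAMP element lay near a summit, where they were found at 1.57% and 0.0729% of all BMAL1 regions and at 1.74% and 0.871% of all REV-ERBα regions, although a D-box stood under all 4 promoter peaks of BMAL1 and REV-ERBα at Ciart, 644 bp upstream of the TSS.

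Set beside 22 other clock genes, which include the Per and Cry repressors and the PAR bZIP factors, Ciart stood near the top for BMAL1 and REV-ERBα. By their strongest peaks, wherever in the window these lay, Bhlhe40 and Bhlhe41 stood near the middle for BMAL1. Of the 22, 10 had a BMAL1 region, 7 a REV-ERBα region, 9 a shared site and 15 an RNAP2 region. When the 25 genes were ordered by their strongest peak, Ciart was 4th in BMAL1 replicate 1, 2nd in BMAL1 replicate 2 and 4th in each REV-ERBα list. Bhlhe40 was 10th and 13th for BMAL1 and 6th and 7th for REV-ERBα, and Bhlhe41 was 12th and 11th for BMAL1 and 8th and 9th for REV-ERBα. The 13th place of Bhlhe40 rested on the lone peak 6694 bp upstream, with a −log10 p of 4.18. In replicate 2 its region present in both replicates had 3.36, which would give a lower place. The BMAL1 places of Bhlhe41 rested on its downstream peaks. The strongest clock gene for BMAL1 was Per1 in replicate 1, with a −log10 p of 36.5, and Nr1d1 in replicate 2, with 31.6. Nfil3, Arntl and Csnk1d had no peak in BMAL1 replicate 1.

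The Hes, Hey and Helt genes, relatives of Bhlhe40 and Bhlhe41 that also code for helix-loop-helix repressors, were counted in the same way. Of 10 genes, 1 (Hey2) had a BMAL1 region, 1 (Hes1) a REV-ERBα region and 0 a shared site, while 4 had an RNAP2 region. The shares of all protein-coding genes were 6.81%, 4.43%, 1.61% and 41.1% in this order. With 10 genes, these counts cannot be told apart from those shares. The median gene of this list was listed with no peak in BMAL1 replicate 1 and in either REV-ERBα list, as was the median of all protein-coding genes.

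**Figure D4:**
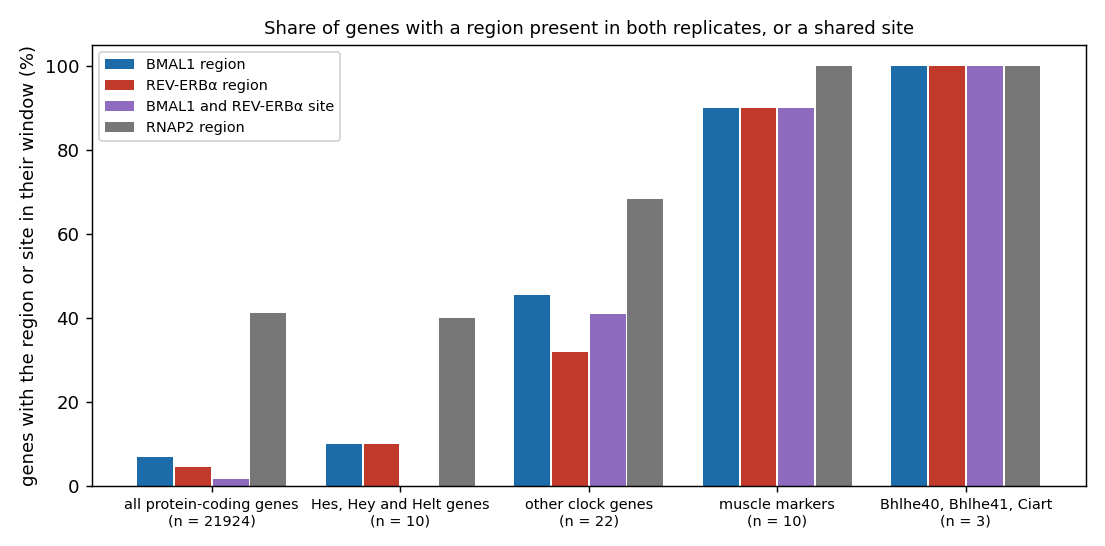
Percent of the genes of each list, on an axis from 0, that had a BMAL1, REV-ERBα or RNAP2 region present in both replicates, or a shared site; n is the number of genes. The shares of BMAL1 regions rise from 6.81% of all protein-coding genes and 1 of 10 Hes, Hey and Helt genes to 45.5% of the other clock genes, 9 of 10 muscle markers and 3 of 3 genes.

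Genes of high RNAP2 also carried BMAL1 and REV-ERBα regions. Of the 10 muscle markers, among them Acta1 and Ckm, 9 had a BMAL1 region, 9 a REV-ERBα region and 9 a shared site, and the median −log10 p of their strongest RNAP2 peaks in replicate 1, 66.8, was above that of the promoter peaks of Bhlhe40, Bhlhe41 and Ciart. The part of transcription in the regions at the 3 genes was not tested. At these markers 0 of 26 BMAL1 regions held CACGTG within 100 bp of the summit, whereas 3 of 4 did at Bhlhe40, Bhlhe41 and Ciart and 6 of 14 at the other clock genes. The BMAL1 peaks of Ciart exceeded those of every marker, which reached 8.68 in replicate 1 and 13.4 in replicate 2. Those of Bhlhe40 did so in replicate 1 only, and those of Bhlhe41 lay within the range of the markers. For REV-ERBα the medians of the markers, 9.20 and 10.6, were above both values of Bhlhe40 and of Bhlhe41 and below those of Ciart. Some markers were below Bhlhe40 in both replicates, whereas Ckm (20.5 and 27.5) and Acta1 (19.6 and 21.2) exceeded Ciart in both.

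Each gene was finally compared with all protein-coding genes by the percent of a list's peaks weaker than its strongest peak, and likeness was the Euclidean distance over the 6 lists. The nearest gene to Bhlhe40 was Bhlhe41, at a distance of 1.6, and the reverse was also true. For BMAL1 replicate 2 this distance did not compare promoters. The value of Bhlhe40, 98.5%, came from the lone peak 6694 bp upstream, and its promoter-side peak gave 94.1%. That of Bhlhe41, 99.9%, came from the downstream peak, and its promoter peak gave 19.2%. Mylk4, Nr1d2 and Nr1d1 were also among the 5 nearest to Bhlhe40 (2.6 to 2.8), and Nr1d1, Nr1d2 and Ciart among the 5 nearest to Bhlhe41 (2.3 to 2.8). For Ciart the nearest was Tef at 0.2, followed by Dbp, Car11, Sphk2 and Rpl18, which all gave the same values at a distance of 0.5. Ciart's RNAP2 value in this comparison was that of the peak at the TSSs of Mrps21 and the antisense transcript. Genes with strong peaks in every list crowd near the upper end of this scale.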

How the data were processed

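ChIP-seq peak lists from mouse gastrocnemius were analysed, 2 each for BMAL1, REV-ERBα and RNAP2. The authors aligned reads to mm10 with BWA 7.12, discarded duplicates and reads with more than 1 match, thinned the replicates to about equal depth and called peaks for each replicate, relative to input DNA and with a p-value limit of 0.05, in MACS2 2.1.1. Values of −log10 p and −log10 q and the fold enrichment over input (a ratio) are the deposited ones, from the authors' peak caller. The deposited score repeats the −log10 p and was not used. Reads and coverage tracks were not used here, so the number of reads behind a single peak is unknown and no counting interval can be given.

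Peaks were merged where they shared at least 1 bp. A region needed a peak in each replicate of a factor, and a shared site needed merged peaks from 3 or more of the 4 lists of BMAL1 and REV-ERBα. A window was the gene body and 10 kb to each side of every TSS in GENCODE M21. CACGTG and other motifs were searched on both strands of GRCm38 within 100 bp of the summit with the higher −log10 p. Distances are from the nearest TSS, negative ones being given as upstream. No test was run, since each factor had 2 replicates and 1 condition. Whether the replicates came from separate animals is not given in the labels, although the paper calls them biological. The code was tested on simulated data.

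The 3 genes, the gene lists and the motifs were chosen with earlier results of these data known. Genes named are the 3 genes, protein-coding genes whose body or TSS lies in their windows, the strongest and weakest of each gene list, and the 5 nearest in pattern, of which not every one is reported here. Hey2, Hes1, Acta1 and Ckm were named after their values were seen. Alternatives were windows of 5 and 20 kb, TSS windows without gene bodies, TSSs of protein-coding transcripts, −log10 p of at least 3, −log10 q of at least 1.3, an overlap of 50% of the shorter peak, other motif windows, and leaving out each replicate. Python 3.11.15 with numpy 2.4.6 and pysam 0.24.0 was used, and plots were drawn with matplotlib 3.10.9.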

Additional observations from a re-analysis of the deposited data

How the results depend on the processing

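The counts of genes with a REV-ERBα region, an RNAP2 region or a shared site stayed at 3 of 3 under every window, threshold, overlap rule and left-out replicate tried, and the count with a BMAL1 region stayed at 3 of 3 in all of these but one. For RNAP2, Ciart met the stricter −log10 p and −log10 q limits only through the peaks at the TSSs of Mrps21 and the antisense transcript. Its promoter peak in RNAP2 replicate 2, with a −log10 p of 2.86 and a −log10 q of 0.00, passed neither limit. When every peak had to reach a −log10 q of 1.3, the count with a BMAL1 region was 1 of 3. Ciart was kept and Bhlhe40 and Bhlhe41 were lost, because their peaks in BMAL1 replicate 2 did not reach this value. The share of all protein-coding genes with a BMAL1 region fell to 0.109% at that threshold and to 0.356% at a −log10 p of at least 3, where 3 of 3 genes kept a region. With 1 BMAL1 replicate the member count was 3 in each case, but the share of all genes was 84.3% without replicate 1 and 38.2% without replicate 2, so a single list says little about a gene. For REV-ERBα these shares were 40.1% and 38.7%, and for RNAP2 86.4% and 76.9%.

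CACGTG near the BMAL1 summit was found at 1 of 4 regions within 50 bp, compared with 1.46% of all regions, and the cause is the narrower window. At the REV-ERBα summits, CACGTG was found at 1 of 4 regions within 200 bp (6.81% of all), at 2 when CACGTT was also counted (6.97%) and at 2 when the summit of the weaker replicate was used (4.43%). A window of 5 kb removed the downstream BMAL1 region of Bhlhe41, whose highest −log10 p in replicate 2 then fell from 5.22 to 1.87. From the Ciart window it also removed the RNAP2 peaks at the TSSs of Mrps21 and the antisense transcript. The RNAP2 values of Ciart then became 9.34 and 2.86. No paired analysis was possible because no result comes from a test. The unknown reads behind each peak limit every comparison of −log10 p between lists.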
